A study of Mus musculus and Homo sapiens with 8 samples.

Results

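Acute-phase proteins are plasma proteins that hepatocytes secrete in changed amounts during infection, injury and other inflammation. Interleukin-6 signalling through STAT3 raises many of them, among them the fibrinogen chains, and interleukin-1 signalling through NF-kappaB and C/EBP factors adds to the response of others, such as serum amyloid A, complement C3 and orosomucoid. HepG2, a human liver carcinoma line, keeps many secretory functions of hepatocytes and is often used to study this response.

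The genes described here are 10 liver-made acute-phase proteins, chosen by their Ensembl identifiers among the 60675 rows of the deposited count table. They are the fibrinogen chains FGA (ENSG00000171560), FGB (ENSG00000171564) and FGG (ENSG00000171557), haptoglobin HP (ENSG00000257017) and the protease inhibitor SERPINA3 (ENSG00000196136). The others are complement component C3 (ENSG00000125730), the orosomucoids ORM1 (ENSG00000229314) and ORM2 (ENSG00000228278), serum amyloid SAA1 (ENSG00000173432) and the lipopolysaccharide-binding protein LBP (ENSG00000129988). The rule names them by identifier and sets no threshold on a measured value, but the list was drawn up with earlier results of these data known.

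The series sequenced RNA from 8 samples of HepG2 and NIH3T3 mouse cells, of which the 4 HepG2 samples were used here. Of these, 2 were HepG2 cells given arsenite for 24 h and 2 were HepG2 cells given water for 24 h, all at 25 population doublings and with no genetic change named in the labels. The labels write 5 nM beside the arsenite and repeat it beside the water. All libraries come from 1 tumour-derived line, and the labels do not name separate cultures within a group, so the spread behind the p-values may be technical. The arsenite libraries held 27192636 and 27361110 counts, and the water libraries held 26965049 and 27481613. Identity of the cells by other liver markers was not checked, because human symbols for the other rows were not used here.

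Expression of the 10 genes ranged from among the most abundant in the cell to none. C3, ORM1, ORM2, FGG, FGA, FGB, HP and SERPINA3 had enough counts to be tested. SAA1 and LBP were at or near 0 in every library and were not tested. Of the 8 tested genes, 3 rose with arsenite, namely ORM1 by 1.76-fold, ORM2 by 1.46-fold and C3 by 1.33-fold, and 5 did not pass the test. None was called lower, and none of the fibrinogen chains passed the test.

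Called genes are those with an adjusted p of at most 0.05 in edgeR's quasi-likelihood test, with Benjamini-Hochberg adjustment over all 14389 genes tested. The count of 3 higher among 8 tested compares with 11.8% of all tested genes called higher and 30.6% called in either direction. The count of 3 fell without some single libraries, and the number of all genes called moved as well. With 1 library left out, the log2 fold change of ORM1 ran from 0.73 to 0.97. That of ORM2 ran from 0.51 to 0.66, and that of C3 from 0.38 to 0.49. The count of 0 lower compares with 18.8% of all tested genes called lower. No tested acute-phase gene was lower at an unadjusted p under 0.05 in edgeR either. Of the 14389 genes tested, 5886 were under it in either direction, a number not split by direction here. DESeq2 called 0 of the 8 genes lower, where 14.4% of all genes tested were called lower. In CPM, counts scaled to library size, 5 of the 8 genes had both arsenite libraries above both water libraries, an arrangement found for 25.5% of all genes tested. The median log2 fold change was 0.33 over the 8 genes and -0.02 over all genes tested. Among all genes, those of high abundance were called higher more often: of the 2878 most abundant genes 27.1% were higher and 12.2% lower. These 2878 held 5 of the 8 genes, FGA, FGG, C3, ORM1 and ORM2, and the 3 genes that rose were all among them. These counts describe the list and are no test of it.

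**Figure D1:**
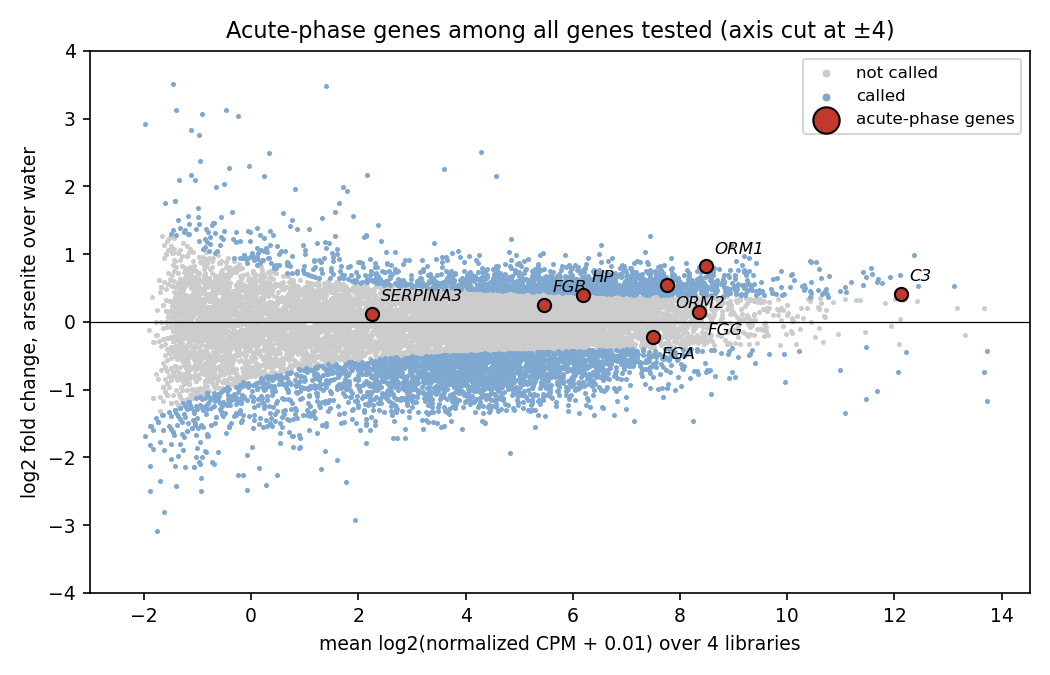
Each point is 1 of the 14389 genes tested, placed by its mean abundance over the 4 HepG2 libraries (x axis, log2 scale) and its fitted log2 fold change, arsenite over water (y axis, drawn from -4 to 4). Red points are the 8 acute-phase genes tested, blue points are called genes and grey points are not called. ORM1, at a log2 fold change of 0.82, lies highest of the 8, and FGA, at -0.22, lies lowest.

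The orosomucoids gave the largest changes. ORM1 and ORM2 encode alpha-1-acid glycoproteins, abundant plasma carriers of basic drugs and modulators of leukocyte activity. ORM1 had 12797 and 11395 counts in the arsenite libraries, against 7322 and 7205 counts in the water libraries. Scaled to library size, ORM1 stood at 471 and 416 CPM with arsenite, against 272 and 262 CPM with water. Both arsenite libraries were well above both water libraries, and each of the 4 pairs of an arsenite and a water library gave a ratio of at least 1.53. The fitted log2 fold change of ORM1 was 0.82 (SE 0.16), and edgeR's adjusted p was 7.86e-06. This change exceeded that of 97.8% of all genes tested.

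ORM2 had 6955 and 6589 counts with arsenite, against 4772 and 5027 counts with water, which is 256 and 241 CPM against 177 and 183 CPM. The groups did not overlap, and ratios between single libraries ran from 1.32 to 1.45. Its log2 fold change was 0.55 (SE 0.16), and edgeR's adjusted p was 0.00460. ORM2 lost its call without arsenite library 1 (adjusted p = 0.137, edgeR) and without water library 1 (adjusted p = 0.0884, edgeR), with log2 fold changes of 0.51 and 0.54. ORM1 stayed past the threshold whichever library was left out. The encoding genes are near-identical neighbours, so reads that match both may have been dropped or split between them, and the separate values are uncertain to that extent. Together they took 0.0726% and 0.0657% of all counts with arsenite, against 0.0449% and 0.0445% with water, a ratio of means of 1.55.

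Within a library, ORM1 was the more abundant of the pair. Per length, with RPKM, CPM divided by gene length in kilobases, computed from the counts and each library's own total, ORM1 over ORM2 was 1.55 and 1.46 with arsenite, against 1.29 and 1.21 with water. The ratio was thus higher in both arsenite libraries. The mean difference was 0.27 on the log2 scale, against SDs between replicates of 0.06 with arsenite and 0.07 with water (n = 2 each). An exact 2-sided permutation test gave p = 0.333, which is the smallest that 2 libraries against 2 allow.

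C3, the central component of the complement cascade, was by far the most counted of the 10 genes. It ranked 13 by mean CPM among the 14389 genes tested. C3 had 127412 and 141523 counts with arsenite, against 102170 and 111295 with water, which is 4686 and 5172 CPM against 3789 and 4050 CPM. The groups did not overlap, with single-library ratios from 1.16 to 1.37. The fitted log2 fold change was 0.41 (SE 0.14) and the adjusted p 0.0164 in edgeR's test. This call was close to the threshold. It was lost without water library 1 (log2 fold change 0.38, adjusted p = 0.192, edgeR) and without water library 2 (log2 fold change 0.45, adjusted p = 0.0550, edgeR), although the fitted change stayed about as large. It was also lost when counts were scaled to library size alone (log2 fold change 0.33, adjusted p = 0.0519, edgeR).

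HP encodes haptoglobin, which binds free haemoglobin in plasma and so limits its oxidative action. HP had 2330 and 2067 counts with arsenite, against 1785 and 1740 counts with water. In CPM these were 85.7 and 75.5 with arsenite, against 66.2 and 63.3 with water, so the groups did not overlap. The log2 fold change was 0.40 (SE 0.17), nearly as large as that of C3, but HP did not pass the test (adjusted p = 0.0634, edgeR). The 95% interval of the difference ran from 1.04-fold to 1.67-fold before adjustment for the number of genes. DESeq2 did call HP (log2 fold change 0.43, adjusted p = 0.0333), and with it 4 of the 8 genes, where 11.9% of all tested genes were called higher. HP was also past the threshold once each library's trend with gene length was taken out (log2 fold change 0.46, adjusted p = 0.00951, edgeR) and barely so with upper-quartile scaling (adjusted p = 0.0494, edgeR). It stayed short of it with library size alone (adjusted p = 0.151, edgeR), with no filter on low counts (adjusted p = 0.112, edgeR) and on filtered log2(RPKM + 1) (adjusted p = 0.145, limma). With 1 library left out, the adjusted p of HP in edgeR was 0.477 without arsenite library 1, 0.0770 without arsenite library 2, 0.188 without water library 1 and 0.207 without water library 2. Its related neighbour, the haptoglobin-related gene, shares much of its sequence, so some reads may have been assigned to either.

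**Figure D2:**
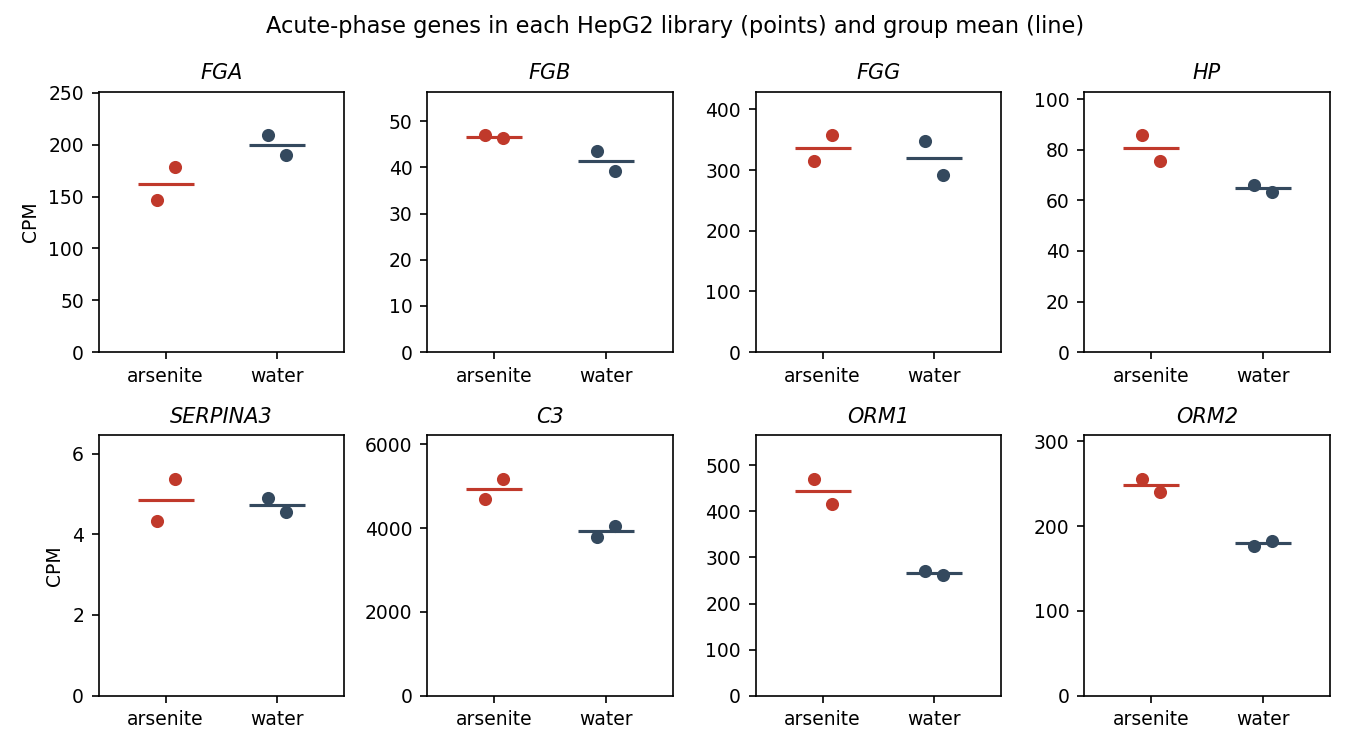
CPM of the 8 tested acute-phase genes in each HepG2 library (points) with the group mean (line), each panel on its own axis from 0, with arsenite in red and water in blue-grey. ORM1, ORM2, C3, HP and FGB have both arsenite points above both water points, FGA has both below, and FGG and SERPINA3 overlap.

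Fibrinogen, the precursor of the fibrin clot, is assembled in the endoplasmic reticulum from paired alpha, beta and gamma chains, encoded by FGA, FGB and FGG. These genes lie next to each other and respond together to interleukin-6 in hepatocytes. Here none of the chains passed the test. Their fitted changes differed in sign, with 95% intervals that overlapped. FGA had 3979 and 4874 counts with arsenite, against 5639 and 5216 with water, or 146 and 178 CPM against 209 and 190 CPM. FGA was the only gene of the 8 with both arsenite libraries below both water libraries, an arrangement found for 41.2% of all genes tested. Its log2 fold change was -0.22 (SE 0.16), edgeR's adjusted p was 0.319, and the 95% interval ran from 0.690-fold to 1.07-fold.

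FGB had 1277 and 1268 counts with arsenite, against 1175 and 1079 counts with water, or 47.0 and 46.3 CPM against 43.6 and 39.3 CPM. Both arsenite values lay above both water values, but the margin was small. Its log2 fold change was 0.25 (SE 0.18) and edgeR's adjusted p was 0.292. FGG had 8559 and 9776 counts with arsenite, against 9369 and 8046 with water, or 315 and 357 CPM against 347 and 293 CPM. These groups overlapped. The log2 fold change of FGG was 0.15 (SE 0.16), edgeR's adjusted p was 0.497, and the 95% interval ran from 0.896-fold to 1.38-fold. A change of 1.5-fold in either direction lies outside this interval, which holds for the fit with all 4 libraries. Its spread came from the trend across genes, with no weight on the replicates of FGG. The fitted value moved with single libraries, to 0.25 without arsenite library 1, 0.13 without arsenite library 2, 0.30 without water library 1 and 0.02 without water library 2, none of them called.

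The chain messages were unequal in level. Per length, FGG stood at 87.4 and 99.2 RPKM with arsenite, against 96.5 and 81.3 RPKM with water. FGA stood at 37.0 and 45.0 RPKM with arsenite, against 52.9 and 48.0 RPKM with water. FGB, the lowest of the chains in all 4 libraries, stood at 17.3 and 17.1 RPKM with arsenite, against 16.1 and 14.5 RPKM with water.

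Ratios within a library do not depend on the scaling between libraries, but can carry a trend with gene length that differs between libraries. FGA, FGB and FGG are 3956, 2708 and 3600 bp long, and no ratio was computed with such trends removed. FGA over FGB was 2.13 and 2.63 with arsenite, against 3.29 and 3.31 with water. FGA over FGG was 0.423 and 0.454 with arsenite, against 0.548 and 0.590 with water. Both ratios were lower in both arsenite libraries than in either water library, by 0.48 and 0.38 on the log2 scale. FGB over FGG was 0.198 and 0.172 with arsenite, against 0.167 and 0.178 with water, and overlapped. The exact 2-sided permutation test gave p = 0.333 for FGA over FGB and for FGA over FGG, the smallest that 2 against 2 allow, and p = 0.667 for FGB over FGG. These were 3 of 4 ratios compared, and with so few libraries none could pass a threshold of 0.05. Summed over the chains, fibrinogen took 0.0508% and 0.0582% of counts with arsenite, against 0.0600% and 0.0522% with water, and the groups overlapped.

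**Figure D3:**
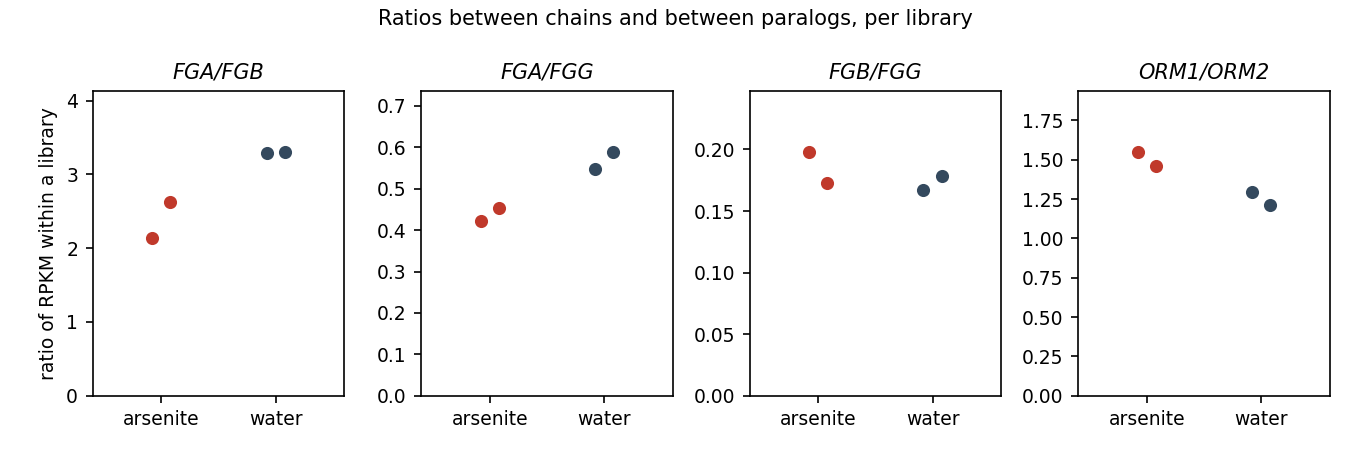
Ratios of RPKM between fibrinogen chains and between the orosomucoid paralogs within each HepG2 library, with arsenite points in red and water points in blue-grey and each axis starting at 0. FGA/FGB and FGA/FGG are lower in both arsenite libraries, FGB/FGG overlaps, and ORM1/ORM2 is higher in both arsenite libraries.

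The lower FGA value rested more on arsenite library 1 than on the other. Without it the log2 fold change of FGA was -0.07 (adjusted p = 0.891, edgeR), and without arsenite library 2 it was -0.29 (adjusted p = 0.368, edgeR). Arsenite library 1 was also the library in which long genes were relatively low. Whether this bears on the FGA value was not tested. Across 11300 genes, Spearman's rho of relative abundance with gene length was -0.334 in arsenite library 1 and 0.0816 in arsenite library 2, against 0.208 and 0.124 in the water libraries. With these trends removed, the log2 fold change of FGA was -0.19 in place of -0.22. That of C3, the longest of the 10 genes at 8328 bp, was 0.56 in place of 0.41. The changes of ORM1 and ORM2, the shortest of the tested genes at 901 and 760 bp, were 0.77 and 0.52 after the same step.

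SERPINA3, alpha-1-antichymotrypsin, inhibits the neutrophil protease cathepsin G. It was low in these cells, with 118 and 147 counts in the arsenite libraries, against 132 and 125 counts in the water libraries. In CPM these values were 4.34 and 5.37 with arsenite, against 4.90 and 4.55 with water, and overlapped. The log2 fold change was 0.12 (SE 0.23), and edgeR's adjusted p was 0.721. Its 95% interval, from 0.801-fold to 1.48-fold, was the widest of the 8 genes on the log2 scale. With 1 library left out the value of SERPINA3 was 0.28 without arsenite library 1, 0.03 without arsenite library 2, 0.19 without water library 1 and 0.06 without water library 2, none of them called.

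SAA1 and LBP carry or bind bacterial and lipid cargo. SAA1 is an apolipoprotein of high-density lipoprotein that rises steeply in inflammation, and LBP passes lipopolysaccharide to CD14. SAA1 had 0 counts in all 4 libraries, which allows a level of up to 0.110 CPM in each arsenite library, and up to 0.111 and 0.109 CPM in the water libraries. SAA1 has a near-identical neighbour, and reads that match both may not have been counted. LBP had 2 and 0 counts with arsenite, against 1 and 0 counts with water, also at or under the floor of 3 counts. No change in either gene was detectable at this depth, and no fold is given. Floors and intervals of counts cover counting error only.

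The order of levels per length was the same in both groups. C3 led with 592 ± 41.3 RPKM with arsenite and 471 ± 22.1 RPKM with water (SD, n = 2 each). ORM1 followed at 492 ± 42.5 RPKM with arsenite and 296 ± 7.35 RPKM with water, and ORM2 at 327 ± 13.9 RPKM with arsenite and 237 ± 5.54 RPKM with water. FGG, FGA, FGB and HP came next, with HP at 14.9 ± 1.33 RPKM with arsenite and 11.98 ± 0.377 RPKM with water. SERPINA3 closed the order at 0.971 ± 0.146 RPKM with arsenite and 0.945 ± 0.0490 RPKM with water. Neighbours in this order did not overlap between libraries of a group. The margin between C3 and ORM1 was small with arsenite, where the lower C3 value was 563 RPKM and the higher ORM1 value 522 RPKM. The lengths are those behind the authors' RPKM and may count exons that HepG2 cells do not use, so levels between genes are approximate.

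Together the 10 genes took 0.601% and 0.649% of all counts with arsenite, against 0.491% and 0.508% with water. C3 alone made up 78.0% and 79.7% of these counts with arsenite, against 77.2% and 79.6% with water. Without C3 the shares were 0.132% and 0.132% with arsenite, against 0.112% and 0.103% with water. Both shares were higher in both arsenite libraries. Without C3 the mean rise was 0.0245 percentage points, and for ORM1 and ORM2 alone it was also 0.0245. The share of the fibrinogen chains differed by -0.0016 percentage points. A bulk measurement cannot tell fewer cells that make a transcript from less transcript per cell.

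**Figure D4:**
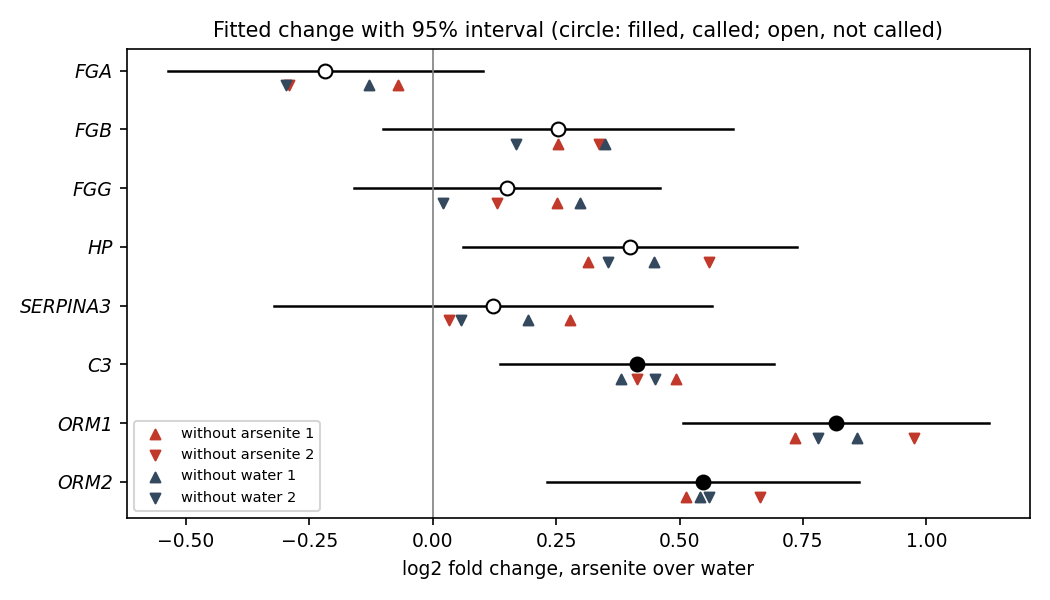
Fitted log2 fold change, arsenite over water, of the 8 tested genes (circles, filled where called) with its 95% interval (line), and the value with each library left out (triangles below). ORM1, ORM2 and C3 are filled. FGA is the only gene with a fitted value below 0, at -0.22.

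The spread between replicates varied from gene to gene. The higher arsenite library exceeded the lower by 23.8% for SERPINA3, 21.7% for FGA, 13.5% for FGG and 13.4% for HP. The excess was 13.0% for ORM1, 10.4% for C3, 6.21% for ORM2 and 1.33% for FGB. For the water libraries the same figure was 7.62% for SERPINA3, 10.2% for FGA, 18.7% for FGG and 4.55% for HP. It was 3.57% for ORM1, 6.88% for C3, 3.36% for ORM2 and 11.0% for FGB. The spread of FGG between water libraries exceeded the 4.97% by which its group means differed. The arsenite libraries also held 28 genes with at least 10 counts in each of them and at most 3 counts over both water libraries. These 28 genes summed to 53.2 and 43.6 CPM with arsenite, against 0.371 and 0.255 CPM with water, a contrast that their selection fixes. Their part in the results above was not tested.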

How the data were processed

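Of the authors' files, one holds whole-number counts of reads for each gene and the other holds RPKM values, per the file headers. Tools named in the submitters' processing notes, with no roles, are featureCounts 1.4.6-p4, STAR 2.4.1d and bcl2fastq 1.8.4, with the build GRCh38. Per the labels' protocols, the library kit was TruSeq RNA. The labels used here state neither the strand setting of the counting nor its treatment of reads that match several genes.

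The 4 HepG2 columns were used. In the NIH3T3 columns 12946 rows repeat earlier ones and the human identifiers do not belong to the values, so they were left out. The divisors of the deposited RPKM change in a cycle of 14 rows, so RPKM was recomputed from counts with each library's own total, and gene lengths were recovered from the deposited values.

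Arsenite was compared with water in edgeR 4.0.16 (R 4.3.3) after edgeR's own low-count filter, using TMM factors and the 2-sided quasi-likelihood test. Each gene's spread came from the trend across genes, with no weight on its own replicates. The SE is the log2 fold change over the root of the F statistic. Alternatives used DESeq2 1.42.0 and limma 3.58.1. Fits were also run on simulated counts with a spread taken from edgeR's trend across these genes, so they do not test that spread. The other tools were Python 3.11.15 and scipy 1.17.1. Replicates were numbered in accession order.

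The members, lists and tests were chosen with earlier results of these data known. The rule named all 10 members and, from 6 pathway lists fixed by symbol, the called genes of largest change. It also named some genes whatever their value. Another 4 lists, of cell type markers, were fixed by symbol as well. No identifier of the tables (0) matched the mouse name table used here, so these lists were not analysed here.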

Additional observations from a re-analysis of the deposited data

How the results depend on the processing

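Over 17 alternatives the members called higher numbered 3 in the fit reported, 1 in a test against a fold of 1.2, 0 in limma on log2(RPKM + 1) without a filter on low values, and 1 to 3 with 1 library left out, the lowest without water library 1. The other settings gave 2 to 4, and all gave 0 lower. Among all genes, these other settings called 806 (filtered log2(RPKM + 0.1), 12449 tested) to 2497 (length trend removed, 14389 tested) higher. They called 2067 (DESeq2) to 3318 (library size alone) lower, each of 14389 tested. Against a fold of 1.2, 715 of 14389 genes were called higher and 1783 lower. The 4397 genes called in all became 2498 against a fold of 1.2, 0 on unfiltered RPKM (5634 at an unadjusted p under 0.05, limma; limma-voom on counts called 4508), and 844 (without arsenite library 1) to 4503 (without water library 2) with 1 library left out, with 1378 without water library 1 and 2879 without arsenite library 2. Leaving out a library leaves 1 sample in its group, whose spread is then taken from the other group. For the 0 calls on unfiltered RPKM the cause was not tested. Every tested gene kept its direction in all alternatives run. The threshold of 0.10, the test against a fold of 1.2 and edgeR's robust spread reuse the fold changes of the fit reported. In these settings the directions were fixed in advance, and a gene called at 0.05 could not lose its call at 0.10. ORM1 kept its call in 16 of 17 (adjusted p up to 0.177, limma), ORM2 in 13 and C3 in 10. HP was called in 4, among them the looser threshold of 0.10. Against a fold of 1.2, ORM2 had an adjusted p of 0.0564 and C3 of 0.161 in edgeR. On filtered log2(RPKM + 1), C3 had an adjusted p of 0.0796 in limma. The median log2 fold change of the members ran from 0.23 to 0.38. The highest came with a filter at a mean CPM of 5, where 7 members were tested and SERPINA3 was left out. The rise of their summed share, 0.125 percentage points, was 0.0245 without C3, a setting chosen after seeing the data. At this depth SAA1 and LBP allow no comparison. No paired analysis was possible because replicate numbers follow accession order and pair nothing. The alternatives for the accompanying lists and the total without mitochondrial genes were not run, for want of human symbols.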

Other observations

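The RPKM values in the authors' deposited table give other ratios for the same genes, because the divisor behind a value changes from row to row and column to column. For ORM1 the authors' deposited table lists 761 and 561 RPKM with arsenite, against 248 and 261 RPKM with water, a ratio of means of 2.60, where RPKM from each library's own total gives 1.66. For ORM2 the authors' deposited table gives a ratio of 1.91, against 1.38 with own totals. For FGG the ratio in the authors' deposited table lies below 1, at 0.908, and with own totals above 1, at 1.05. SERPINA3 turns in the same way, with a ratio of 0.955 in the authors' deposited table and 1.03 with own totals. In water library 2 the order of HP and FGB also depends on it. There the authors' deposited table has HP at 17.3 RPKM and FGB at 13.7 RPKM. Own totals give 11.7 RPKM for HP and 14.5 RPKM for FGB. In the other HepG2 libraries FGB lies above HP both in the authors' deposited table and with own totals.

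In the NIH3T3 columns the row with the identifier of FGG holds 1293 and 1315 counts with arsenite, against 1239 and 1167 with water, and that of SAA1 holds 20 and 13 counts with arsenite, against 19 and 16 with water. Since the human identifiers do not belong to these values, they say nothing of FGG or SAA1 in mouse cells.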
